A study of Saccharomyces cerevisiae with 24 samples.

Results

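Cytoplasmic ribosomal protein (RP) gene promoters were taken here as the sub-nucleosomal peaks that lie 1 to 800 bp upstream of the start codon of a gene for a protein of the cytoplasmic ribosome. Genes were chosen by symbol alone: 76 begin with RPL (large subunit), 56 with RPS (small subunit), and the 5 stalk genes are RPP0, RPP1A, RPP1B, RPP2A and RPP2B. All 137 genes had a peak, and the rule gave 439 of the 58467 peaks in the data, with no read count used in the choice. Of these peaks 317 lay outside any coding sequence and 122 inside one, 153 were also within 800 bp upstream of a gene that is no RP gene, and 10 were upstream of a pair of RP genes. No member peak was without reads.

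The libraries are sub-nucleosomal MNase-seq of budding yeast. Crosslinked chromatin is digested with micrococcal nuclease, and the DNA fragments too short for a nucleosome are sequenced. A peak can mark DNA protected by a smaller protein such as a transcription factor, which was not tested here for single peaks. The SSDDCS strain is sml1∆ (sml1_delta::HphNT) and carries extra copies of SLD2, SLD3, DPB11, DBF4, CDC45 and SLD7 under the galactose-inducible GAL1-10 promoter, inserted at leu2, his3 and trp1 (written SLD3-A and Dbf4-A in the genotype for that pair). These 6 genes encode limiting factors of replication initiation. The control strain is sml1∆ (sml1_delta::URA3) with no such insert. Both are MATa W303, with the alleles rad5-535, can1-100, ade2-1, trp1-1, ura3-1, leu2-3, 112 and his3-11, 15 in common, and both lack Sml1, the inhibitor of ribonucleotide reductase. Cells were arrested in G1 with the mating pheromone alpha factor in raffinose, given galactose in the arrest, and released into galactose medium. Libraries were made in G1 and at 5, 10, 15, 20, 25, 30, 35, 40, 45, 50 and 60 min after release, which gives 12 libraries for SSDDCS and 12 for the control, 1 for each strain and time. No group has a replicate, so no difference below was tested, and the intervals printed (95%) cover counting error only.

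RP genes are among the most strongly transcribed in growing yeast, and their promoters share an architecture. Rap1 binds most of them and recruits Fhl1 and its partner Ifh1, with Sfp1 and Hmo1 as further regulators, while a minority are bound by Abf1 in place of Rap1. The set is a standard example of genes that are switched up and down together with growth.

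The reads outside the ribosomal DNA numbered 320996 to 372750 per library, of which 4060 to 5813 fell in RP promoters. Counts are given as scaled reads, that is, divided by the library's total without the ribosomal DNA array (chromosome XII, 451 to 491 kb) over the mean of these totals. Such a value is a share: RP promoters can only take less of a library when other peaks take more. A peak was called high-confidence when log2 of its scaled reads plus 1, summed over the 24 libraries, passed 75. The threshold is that of the study's methods, but the scaling and the added 1 were chosen here, so the class need not hold the same peaks as the study's. This held for 207 RP promoter peaks and 8222 peaks in all. The positions have a coarse grain, since neighbouring peaks were a whole multiple of 50 bp apart in 95.4% of pairs and never closer than 100 bp.

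The sequences at the RP promoter peaks were read on the strand of the gene from the RefSeq R64 genome, the build to which the reads were aligned. The first set shows the Rap1 consensus under the strongest peaks that lie on it, as 30 bases on each side of the peak position, with the consensus in capitals.
RPL41B peak, chrIV:222122-222182, minus strand: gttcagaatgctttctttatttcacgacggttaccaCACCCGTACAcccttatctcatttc
RPS30B peak, chrXV:678965-679025, minus strand: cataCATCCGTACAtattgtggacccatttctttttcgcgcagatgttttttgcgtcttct
RPL12B peak, chrIV:1301086-1301146, plus strand: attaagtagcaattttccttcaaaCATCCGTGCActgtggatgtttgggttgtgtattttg
RPL20B peak, chrXV:901503-901563, minus strand: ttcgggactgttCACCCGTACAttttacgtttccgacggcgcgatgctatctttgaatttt
RPS19A peak, chrXV:93066-93126, minus strand: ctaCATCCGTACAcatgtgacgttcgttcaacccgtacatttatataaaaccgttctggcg
RPL27A peak, chrVIII:126092-126152, plus strand: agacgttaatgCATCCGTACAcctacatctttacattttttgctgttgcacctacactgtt

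A longer stretch shows the order of the parts in 1 promoter, that of RPL41B, the gene of a very small large-subunit protein. It was the RP promoter with the most reads in a peak on the consensus and a peak 75 to 225 bp from it towards the gene, summed. The first peak lies over the capitals, 351 bp from the start codon, and the second lies 150 bp from it towards the gene, in the last part of the stretch. Close to the second peak the stretch also holds TTACCCG, a motif linked to Reb1, left in lower case. Which protein covers the second peak was not tested.
RPL41B promoter, chrIV:221967-222187, minus strand: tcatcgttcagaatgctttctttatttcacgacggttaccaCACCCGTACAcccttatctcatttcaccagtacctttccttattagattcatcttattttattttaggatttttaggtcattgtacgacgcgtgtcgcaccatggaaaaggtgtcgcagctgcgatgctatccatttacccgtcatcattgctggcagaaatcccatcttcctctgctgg

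The Abf1 consensus was found at the strongest peak of RPS22B, 727 bp from the start codon of this small-subunit gene. RPS22B is on the list of genes that Abf1 rather than Rap1 is known to bind. RPS28A is also on that list, and its peak at 133 bp had no Abf1 consensus in the stretch of 61 bases read there. Among all 137 RP promoters, 6 had the consensus within 50 bp of the strongest peak. RPS22B is thus an example and does not stand for the list. The capitals in its sequence mark the consensus.
RPS22B peak, chrXII:855685-855745, plus strand: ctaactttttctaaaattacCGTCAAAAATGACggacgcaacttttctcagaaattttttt

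The long form of the Rap1 consensus set RP promoters apart from all other promoters taken as one class more than any other motif searched. It was searched as a fixed pattern of bases on both strands and occurred in the 800 bp window of 60 of 137 RP genes (43.8%), against 1.96% of 5865 other protein-coding genes. A window without this pattern is not shown to lack Rap1. The core ACCCNNACA, which overlaps the long form where both match, occurred in 46.0% of RP windows and 7.26% of other windows. It was also in 8 of 17 windows of glycolytic genes (47.1%), while the long form was in 1 of these 17. For the remaining motifs the shares were closer. GACGCA, linked to Fhl1, occurred in 21.2% of RP windows and 17.3% of others, and ACCCTAA, linked to Tbf1, in 5.11% and 5.92%. TTACCCG, linked to Reb1 and able to overlap the Rap1 core by its last bases, occurred in 6.57% of RP windows and 12.7% of others. The Abf1 consensus occurred in 10.2% and 17.0%, and AAAATTTT in 13.1% and 15.9%. At the strongest peak of a promoter, within 50 bp, the long Rap1 consensus occurred in 11.7% of RP promoters and 0.72% of other promoters, and the core in 12.4% of RP promoters and 23.5% of the glycolytic ones.

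The Rap1 consensus also had a direction and a place. Of the 70 sites in RP windows, 61 read in the direction of the gene and 9 against it. Their median distance from the start codon was 347 bp (quartiles 304 and 426), and 8 promoters held more than 1 site. Sub-nucleosomal peaks stood on some of these sites and on the gene side of them. On the consensus, within 25 bp of its centre, lay 24 peaks, of which 21 were high-confidence. They were in 24 of the 60 promoters with the consensus, so most of these promoters had no peak on it. Towards the gene, 75 to 225 bp from the consensus, lay 46 peaks in 45 promoters, of which 44 were high-confidence, and 16 promoters had both kinds. The peaks on the consensus summed to 437 scaled reads per library and those downstream of it to 936. Between them lay 2 peaks, and since no pair of peaks is closer than 100 bp, an empty stretch beside a peak is set in part by the peak calling. On the other side of the consensus, away from the gene, no bin of 50 bp held more than 107 scaled reads in any of the averages plotted around the Rap1 consensus.

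**Figure D1:**
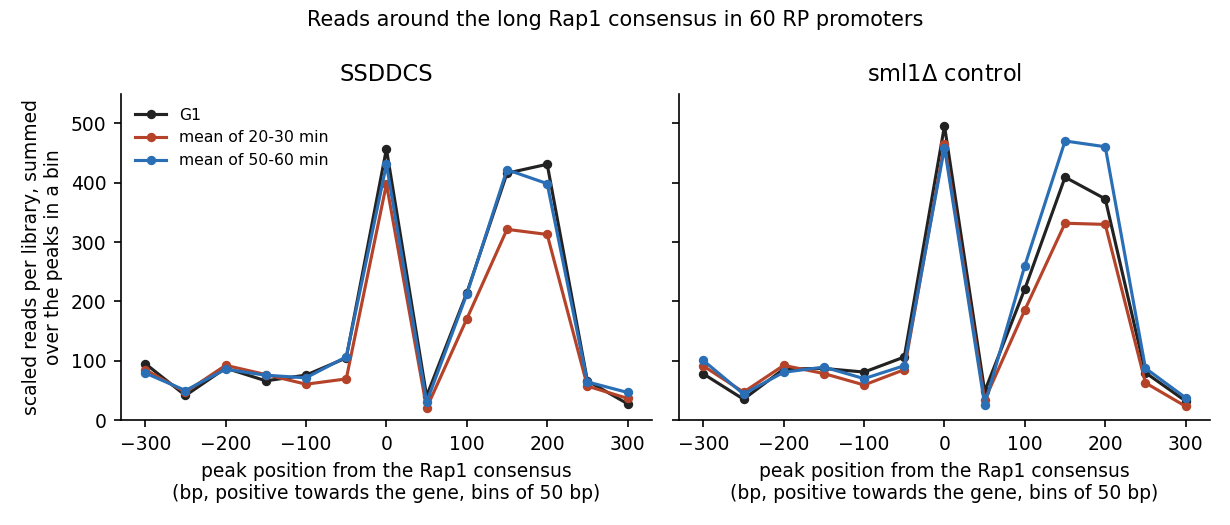
Scaled reads per library summed over RP promoter peaks in bins of 50 bp around the long Rap1 consensus (positive towards the gene), for SSDDCS (left) and the sml1∆ control (right), in G1, as the mean of 20 to 30 min and as the mean of 50 to 60 min. Reads stand in 1 bin on the consensus and in 3 bins from 75 to 225 bp towards the gene, and the 20 to 30 min line is the lowest of the lines in those 3 bins in both strains.

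RP promoters differed from other promoters in where their reads lay. In RP promoters 46.8% of the reads lay 101 to 300 bp upstream of the start codon and 1.69% lay within 100 bp of it, against 36.6% and 7.13% in the promoters of all other protein-coding genes. A peak at 101 to 300 bp was present in 134 of 137 RP promoters, and 16 peaks in all lay within 100 bp. The strongest peak lay at a median of 213 bp in RP promoters (quartiles 173 and 333) and 250 bp in the others, and at 101 to 300 bp in 96 RP promoters. It held a median of 55.4% of the promoter's reads. The RP excess was greatest at 151 to 200 bp, with 6.23 scaled reads per promoter and library in RP promoters and 3.38 in the others. In the next 50 bp upstream the values were 4.91 and 2.38.

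**Figure D2:**
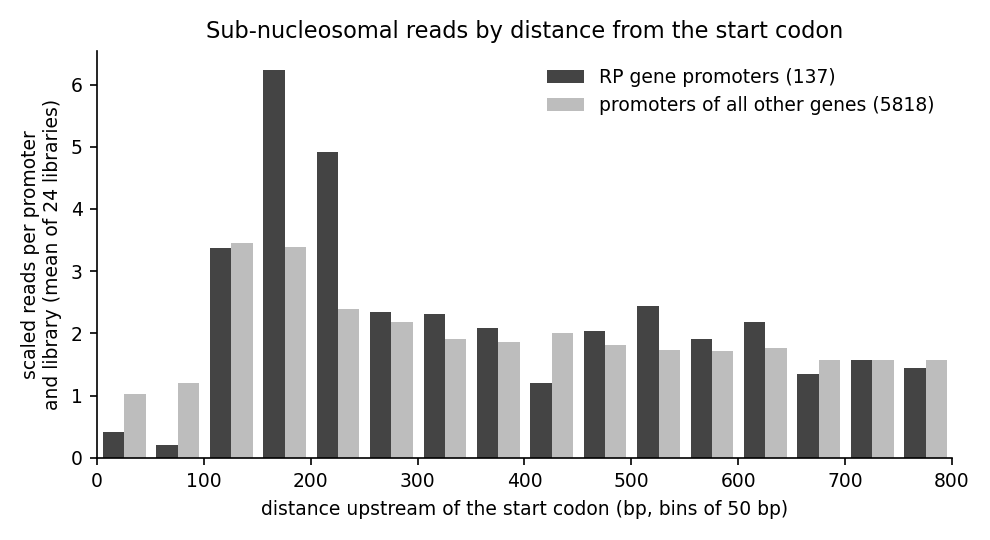
Mean scaled reads per promoter and library (24 libraries) in bins of 50 bp upstream of the start codon, for the 137 RP promoters (dark, left bar of each pair) and the promoters of 5818 other genes (light, right bar). RP promoters stand furthest above the others from 151 to 250 bp. They stand less far above from 251 to 400 bp and from 451 to 650 bp. They lie below the others within 100 bp and from 401 to 450 bp. By less, they also lie below from 101 to 150 bp and beyond 650 bp.

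The total of a promoter was moderately higher in RP genes. Scaled reads per library, averaged over the 24 libraries, had a median of 32.6 over the 137 RP promoters (quartiles 25.1 and 44.8, range 15.1 to 89.3) and 28.1 over the others (quartiles 21.0 and 37.3). RP promoters reached this with fewer peaks, 3.28 per promoter against 3.64. Medians were 33.2 for large-subunit genes, 30.2 for small-subunit genes and 24.8 for the 5 stalk genes. They were 38.9 for the 60 promoters with the long Rap1 consensus, 18.4 for the 6 genes on the Abf1 list and 32.1 for the remaining 71. Coding sequence split by an intron, which marks 65.0% of RP genes and 3.91% of other genes, went with a median of 32.6, against 34.8 for RP genes without one.

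Single promoters ranged 5.9-fold in level. RPS30B, whose small-subunit protein is made as a ubiquitin-like fusion in mammals but not in yeast, had the most reads: 77.3, 92.5 and 103 scaled reads as the lowest, median and highest of the 12 SSDDCS libraries, against 72.9, 87.1 and 111 in the control. RPL33B followed with 63.9, 82.5 and 109 in SSDDCS and 55.0, 81.8 and 108 in the control. For RPL41B the values were 52.5, 68.3 and 84.3 in SSDDCS and 51.8, 69.8 and 95.6 in the control. The ranges of the strains overlapped at each of these promoters, and each lay wholly above the range of the promoters with the fewest reads.

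The next 7 promoters by level were those of RPS4A, RPL15B, RPS19A, RPL40B, RPL13B, RPP2A and RPS8A, with means over the 24 libraries of 64.6, 64.6, 64.1, 63.2, 60.0, 59.8 and 57.9 scaled reads, so neighbours in this order differed by less than their spread over libraries. RPL40B encodes a ribosomal protein that is made as a fusion with ubiquitin, and RPP2A an acidic protein of the stalk. RPP2A and RPS15 had close counts in every library (57.9 and 56.8 scaled reads in SSDDCS G1), so they should not be read as separate results. At the other end stood RPS27A, with 7.03, 13.6 and 20.8 scaled reads as lowest, median and highest in SSDDCS and 7.77, 16.8 and 23.7 in the control. RPL15A, RPP1A, RPS13 and RPS22B, with means of 15.3, 15.8, 16.3 and 17.8, overlapped it in every strain's range. The Abf1 list holds RPP1A and RPS22B of these. Its other members were RPL3 (18.7), RPL4A (18.1), RPL4B (23.1) and RPS28A (27.9).

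**Figure D3:**
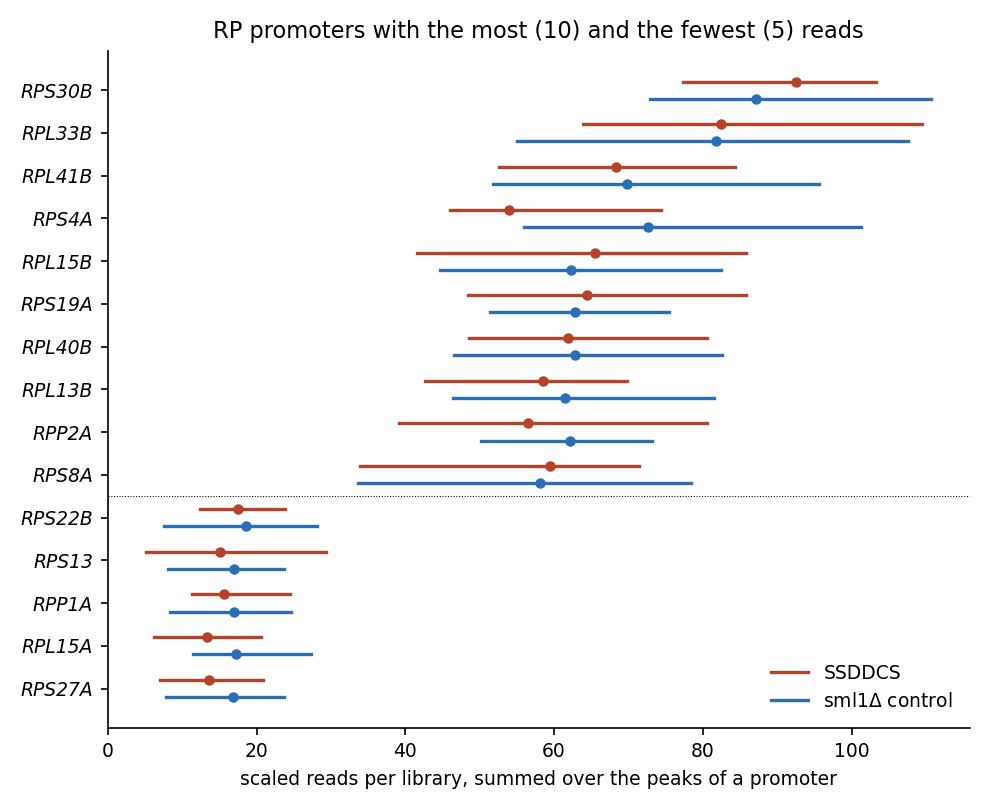
Scaled reads per library for the 10 RP promoters with the most reads and the 5 with the fewest (below the dotted line), with SSDDCS above the sml1∆ control in each row. Lines run from the lowest to the highest of the 12 libraries of a strain and dots mark the median, and the 2 strains overlap in every row.

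The 5 highest single peaks were in the promoters of RPL41B, RPS8A, RPS29A, RPS30B and RPL41A, at 351, 474, 629, 202 and 309 bp from the start codon. The RPL41B peak, over a Rap1 consensus, had 31.2, 38.9 and 51.1 scaled reads as lowest, median and highest in SSDDCS, against 31.1, 43.9 and 60.1 in the control. The RPS8A peak had 25.2, 42.0 and 55.2 in SSDDCS and 20.2, 37.3 and 54.4 in the control. The RPS29A peak had 23.7, 34.4 and 49.0 in SSDDCS and 25.1, 40.5 and 71.0 in the control. Of the 5 peaks, all but that of RPL41A also lay upstream of a gene that is no RP gene, and that of RPS30B lay inside a coding sequence. At the threshold of the high-confidence class the nearest peaks inside were in the promoters of RPS26B and RPL4B (sums 75.2 and 75.3), and the nearest outside in those of RPP1B and RPS21B (74.9 and 74.7).

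Promoter levels were also compared between paralogous copies, whose proteins are nearly the same. The 59 pairs of A and B copies had a median absolute log2 difference of 0.57, the A copy was higher in 36 and the B copy in 23, and 13 pairs were past 2-fold. Pairs of RP promoters that are no paralogs were not compared, so these values show nothing particular to paralogs. The totals also hold peaks shared with neighbouring genes. The pairs furthest apart were RPL15 (RPL15A 15.3 and RPL15B 64.6 scaled reads per library, log2 of A over B -2.08), RPS30 (22.0 and 89.3, -2.02), RPS19 (64.1 and 23.5, 1.45), RPS16 (55.3 and 21.2, 1.38) and RPL13 (23.9 and 60.0, -1.33). In the pairs RPL15, RPS30 and RPL13 the high copy was B, and in RPS19 and RPS16 it was A. The RPS16 and RPL13 pairs should not be read as separate results. RPS16A and RPL13B had close counts in every library (61.1 and 66.5 scaled reads in SSDDCS G1), as did RPS16B and RPL13A (30.0 and 32.2).

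In G1, before the release, RP promoters held 1.45% of the reads in SSDDCS (Wilson interval 1.41 to 1.49) and 1.49% in the control (1.45 to 1.53), a log2 ratio of -0.04 (-0.10 to 0.02). After the release the share was below its G1 in mid time course and near it again at the end, in both strains, with this scaling. In SSDDCS it was lowest at 20 min, at 1.21% (1.17 to 1.25), which was -0.26 on the log2 scale from its G1 (-0.32 to -0.20). In the control it was lowest at 30 min, at 1.29% (1.25 to 1.33), or -0.21 from its G1 (-0.27 to -0.15), and it stayed between -0.19 and -0.21 from 25 to 45 min. At 50 and 60 min the share was 1.47% and 1.45% in SSDDCS and 1.57% and 1.5% in the control, within 0.08 of G1 on the log2 scale in every case. The pooled reads of 20 to 30 min were -0.21 from G1 in SSDDCS (-0.26 to -0.16) and -0.18 in the control (-0.22 to -0.13).

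The direction of this change depends on the scale. With size factors from the median ratio over 8101 high-confidence peaks outside the ribosomal DNA, which set the median peak and not the total to be constant, the same reads at 20 to 30 min were 0.13 above G1 in SSDDCS and 0.08 above G1 in the control, a shift of 0.34 and 0.25. The high-confidence peaks of RP promoters alone were then 0.01 from G1 in SSDDCS and -0.02 in the control, and those of other promoters -0.18 and -0.15. Values that set RP promoters against other promoters do not move with the scale, and these are given next.

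Against all other promoters, RP promoters kept more of their G1 share at 20 to 30 min on high-confidence peaks, in both strains, and over all peaks the difference was small. Other promoters were -0.27 from G1 at 20 to 30 min in SSDDCS and -0.22 in the control. The change in RP promoters minus the change in other promoters was 0.06 in SSDDCS (0.01 to 0.11) and 0.04 in the control (-0.01 to 0.09). Without the 30 min library the SSDDCS value was 0.03 (-0.02 to 0.09). On high-confidence peaks alone, RP promoters were -0.33 and the others -0.52 in SSDDCS, a difference of 0.19 (0.13 to 0.25). In the control these values were -0.27 and -0.40, with a difference of 0.13 (0.08 to 0.19). At 50 to 60 min, when RP promoters were 0.01 from G1 in SSDDCS, other promoters were -0.13, a difference of 0.14 (0.09 to 0.19). At 35 to 45 min the difference was 0.11 in SSDDCS (0.06 to 0.16) and -0.02 in the control (-0.06 to 0.03). In the control RP promoters were 0.05 and other promoters -0.03 from G1 at 50 to 60 min, a difference of 0.08 (0.03 to 0.13). Over the 11 later libraries pooled, the ratio of RP to other promoters was higher in SSDDCS than in the control by 0.03 on the log2 scale (0.01 to 0.04). At 20 to 30 min that value was -0.03 (-0.06 to 0.01), and at 20 min alone -0.09 (-0.15 to -0.03).

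**Figure D4:**
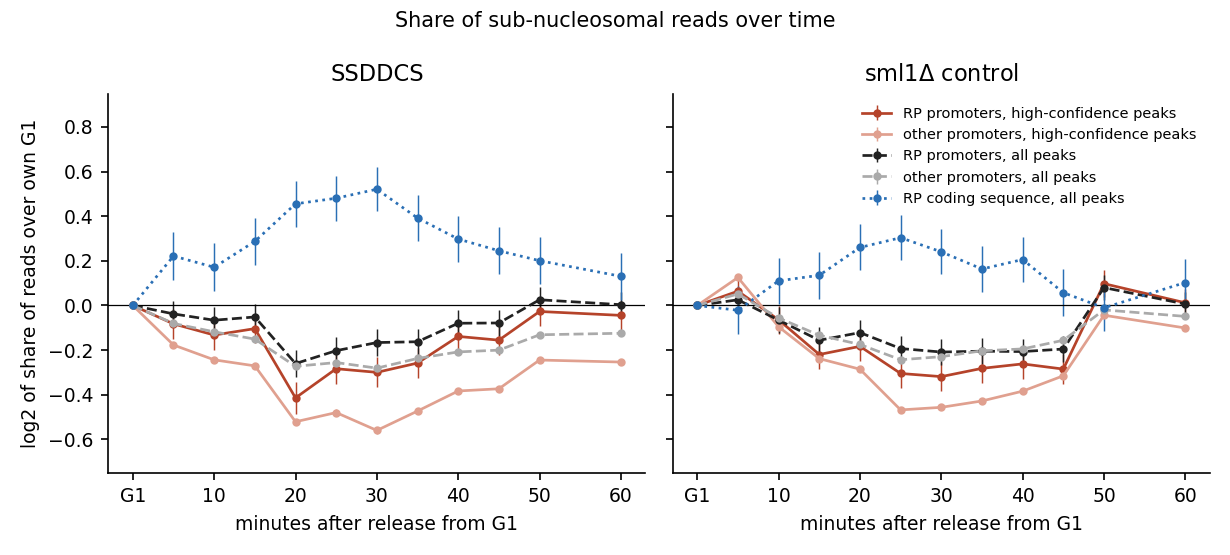
Log2 of the share of reads over the same strain's G1, for SSDDCS (left) and the sml1∆ control (right), with 95% counting intervals, for RP promoters, other promoters and peaks in RP coding sequence. In both strains the high-confidence peaks of RP promoters lie above those of other promoters from 20 to 60 min, and RP coding sequence lies above its G1 at 20 to 40 min.

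With the main scaling, the share at 20 to 30 min was lowest against G1 in the band 100 to 200 bp from the start codon, and the difference between near and far peaks does not move with the scale. Peaks within 200 bp of the start codon were -0.37 from G1 at 20 to 30 min in SSDDCS (-0.46 to -0.28), and peaks further out were -0.14 (-0.20 to -0.08). In the control the values were -0.33 (-0.42 to -0.25) and -0.11 (-0.16 to -0.05). The near minus far difference was -0.23 in SSDDCS (-0.33 to -0.12) and -0.22 in the control (-0.32 to -0.12). The near and far sets were not split by peak class. At 20 to 30 min the high-confidence peaks of RP promoters were -0.33 from G1 in SSDDCS and -0.27 in the control. The 232 low-confidence peaks were at 0.19 and 0.13. The part of peak class in the near minus far difference, and in the bands that follow, was not tested. By band, the log2 change in SSDDCS was -0.39 from 100 to 200 bp, -0.30 from 200 to 300 bp, -0.24 from 300 to 450 bp and -0.00 beyond 450 bp, and in the control it was -0.35, -0.26, -0.14 and -0.01. In the closest 100 bp, with 16 RP peaks, it was -0.07 in SSDDCS (-0.45 to 0.33) and -0.09 in the control (-0.43 to 0.26), against -0.27 and -0.19 in other promoters. From 100 bp outwards the values of other promoters also came closer to 0, at -0.60, -0.37, -0.22 and -0.02 in SSDDCS and -0.47, -0.29, -0.19 and -0.02 in the control. In other promoters the whole of the near part was -0.51 in SSDDCS and -0.40 in the control, so the near part of RP promoters was lower by less in SSDDCS, by 0.14 (0.05 to 0.23). In the control that difference was 0.07 (-0.02 to 0.15).

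Peaks on the Rap1 consensus and those downstream of it were followed separately, and since the downstream peaks are also closer to the gene, the part of distance in any difference cannot be told apart. At 20 to 30 min the downstream peaks were -0.40 from G1 in SSDDCS (-0.51 to -0.29) and -0.25 in the control (-0.35 to -0.14). The peaks on the consensus were -0.20 in SSDDCS (-0.36 to -0.03) and -0.09 in the control (-0.24 to 0.06). The difference, downstream minus site, was -0.20 in SSDDCS (-0.40 to -0.01) and -0.15 in the control (-0.34 to 0.03). Without the 30 min library the SSDDCS value was -0.09 (-0.29 to 0.12). At 50 to 60 min it was 0.04 in SSDDCS (-0.15 to 0.24) and 0.36 in the control (0.17 to 0.55), where the downstream peaks stood 0.25 above G1 and the peaks on the consensus -0.11 from it. Without the 50 min library the control value was 0.22 (-0.00 to 0.44). In RPL41B, whose sequence is printed above, the peak on the consensus had 34.2 scaled reads per library at 20 to 30 min and 47.2 in G1 in SSDDCS, and 42.9 and 44.7 in the control. The downstream RPL41B peak had 16.4 and 30.0 in SSDDCS and 17.7 and 28.4 in the control. Over the whole 800 bp window, promoters with the long consensus differed in their change at 20 to 30 min from those without it by -0.01 in SSDDCS (-0.11 to 0.09) and 0.09 in the control (0.00 to 0.19). Outside RP promoters, 22 high-confidence peaks lay on the long consensus. They were -0.38 from G1 at 20 to 30 min in SSDDCS (-0.53 to -0.22) and -0.48 in the control (-0.62 to -0.34), so the RP peaks on the consensus stood above them by 0.18 in SSDDCS (-0.04 to 0.40) and 0.39 in the control (0.19 to 0.59).

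With the main scaling, peaks inside RP coding sequence stood above G1 at the times when the promoters as a whole stood below it. The 232 low-confidence peaks of RP promoters also stood above G1 at 20 to 30 min. They were at 0.19 in SSDDCS (0.09 to 0.30) and 0.13 in the control (0.03 to 0.23). The part of peak class in the contrast thus cannot be told apart. The coding set was nearly all low-confidence. Its 378 peaks, of which 6 were high-confidence, were 0.49 above G1 at 20 to 30 min in SSDDCS (0.40 to 0.57) and 0.27 in the control (0.18 to 0.35). They stood 0.52 above G1 at 30 min in SSDDCS and 0.30 at 25 min in the control, which were their highest libraries. Coding peaks of other genes were also higher, by 0.24 in SSDDCS and 0.19 in the control. The excess of RP over other coding sequence was 0.25 in SSDDCS (0.16 to 0.33) and 0.08 in the control (-0.00 to 0.17). Between the strains, RP coding peaks held more reads in SSDDCS than in the control by 0.17 at 20 to 30 min (0.12 to 0.23). Peaks of any kind 2 to 10 kb from RP starts were 0.05 from G1 in SSDDCS and 0.03 in the control at 20 to 30 min. This set mixes promoter and coding peaks and does not measure DNA content.

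Between the strains, RP promoters as a set differed by 0.18 or less on the log2 scale at every time. The log2 ratio of SSDDCS over control, with all reads after G1 pooled, was -0.03 (-0.04 to -0.01). Its sign follows the scale, since it was 0.01 with totals that include the ribosomal DNA and 0.03 with the median-ratio factors. Without the 20 min libraries it was -0.01 (-0.03 to 0.01). Among single time points the ratio was lowest at 20 min, -0.18 (-0.24 to -0.12), and highest at 40 min, 0.09 (0.03 to 0.14). The intervals of a single library do not hold the spread between cultures, so a difference of this size at 1 time cannot be told apart from a difference between libraries.

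Single RP promoters were also compared between the strains, with the reads of a promoter summed. A promoter counted when its scaled reads plus 1 differed 2-fold or more at 1 or more times after G1. This held for 23 of 137 RP promoters (16.8%), against 26.5% of 5818 other promoters. On single high-confidence peaks it held for 106 of 207 in RP promoters (51.2%), against 63.8% of 5190 peaks in others. The count tracks depth: it held for 8 of 10 RP promoters under 20 scaled reads per library, 13 of 53 at 20 to 30, 1 of 25 at 30 to 40, 0 of 42 at 40 to 60 and 1 of 7 above, and for 54.9%, 27.0%, 17.0%, 7.77% and 3.86% of others in the same classes. Of the 23 RP promoters 20 passed at 1 time and 3 at 2 times, and only 1 passed at neighbouring times in 1 direction. At 20 min 6 of 137 were lower in SSDDCS and 0 higher, against a similar share of other promoters, 4.71%, past 2-fold in either direction. The other promoters were not split by direction, and their median log2 ratio at 20 min was also below 0, at -0.06. At 30, 35 and 40 min no RP promoter passed, against 3.16%, 2.22% and 2.53% of others.

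Pooled over the 11 later libraries the ratios of the 137 RP promoters lay between -0.39 and 0.47 on the log2 scale, with a median of -0.02, against -0.06 over other promoters. There were 61 above 0 and 76 below (55.5%), against 63.2% below among other promoters. The counting interval lay above 0 in 5 RP promoters (3.65%) and below 0 in 10 (7.30%), against 5.04% and 15.6% of other promoters. RPL17A, for a large-subunit protein at the exit tunnel, stood highest at 0.47 (0.18 to 0.77). Its 1 peak, 214 bp from the start codon, had 16.3, 20.5 and 27.6 scaled reads as lowest, median and highest in SSDDCS, against 7.02, 15.6 and 26.4 in the control, and SSDDCS was higher at 9 of 11 times after G1 but lower in G1. RPL8A (0.28), RPL11B (0.24), RPL36B (0.23) and RPL21A (0.23), all of the large subunit, came next.

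At the low end stood RPS25A (-0.39, interval -0.67 to -0.12), RPS9B (-0.39), RPP0 (-0.37), RPS27A (-0.36) and RPS4A (-0.34). RPS4A was the deepest of these, with 46.0, 53.9 and 74.3 scaled reads as lowest, median and highest in SSDDCS, against 55.9, 72.6 and 101 in the control. SSDDCS was above the control at 2 of 11 times after G1, and it was also lower in G1, with 54.7 against 80.2. RPP0, which anchors the stalk on the large subunit, had 14.3, 19.9 and 35.4 in SSDDCS and 16.7, 28.4 and 34.1 in the control. The strains' ranges overlapped at all of these promoters.

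**Figure D5:**
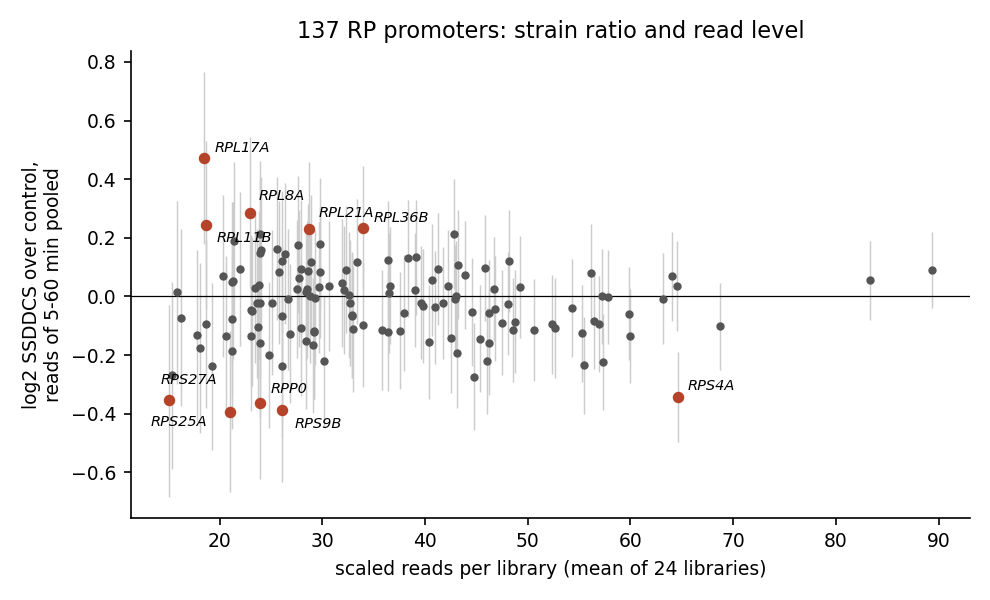
Log2 ratio of SSDDCS over the sml1∆ control with the reads of 5 to 60 min pooled, against the mean scaled reads per library, for 137 RP promoters with 95% counting intervals. The 5 highest and 5 lowest are named, and the spread narrows with depth, from -0.39 to 0.47 overall.

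Over time, few single RP promoters stood apart from their G1. At 20 to 30 min 100 of 137 were below G1 in SSDDCS (73.0%) and 103 in the control (75.2%), against 69.6% and 68.3% of other promoters. The median change was -0.17 in each strain, against -0.26 in SSDDCS and -0.21 in the control over other promoters. With the median-ratio factors these counts were 45 and 54. Past 2-fold, with the mean of 20 to 30 min set against G1, were 1 RP promoter in SSDDCS, against 5.05% of other promoters, and 2 in the control, against 3.01%. RPS3, whose small-subunit protein sits at the messenger RNA entry of the ribosome, was the one in SSDDCS, with 37.2 scaled reads per library at 20 to 30 min and 77.2 in G1 (-1.05, interval -1.49 to -0.60). In the control RPS3 had 49.1 and 71.1 (-0.53). RPL17A was past 2-fold in the control, with 10.2 at 20 to 30 min and 26.4 in G1 (-1.38, interval -2.19 to -0.56), and not in SSDDCS, with 23.2 and 20.4 (0.18). RPS13 was past 2-fold in the other direction in the control, with 19.2 and 8.12 (1.25, interval 0.17 to 2.53), against 10.9 and 15.0 in SSDDCS (-0.44).

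The next lowest at 20 to 30 min in SSDDCS were RPL13A (-0.97), RPS16B (-0.96), RPP0 (-0.94) and RPS0A (-0.92), and in the control RPS7B (-0.89), RPL7B (-0.89), RPL21B (-0.82) and RPL33B (-0.79). RPL13A and RPS16B, with close counts in every library, should not be read as separate results. The highest in SSDDCS were RPL14A (0.80), RPL11B (0.70), RPL21A (0.68), RPL18B (0.68) and RPL39 (0.54). RPL39 and RPS22A had close counts across the libraries (15.0 and 13.9 scaled reads in SSDDCS G1), so they should not be read as separate results. In the control the highest after RPS13 were RPL22B (0.91), RPL31A (0.78), RPS11A (0.74) and RPS28B (0.57). No promoter was among the 5 lowest or the 5 highest in both strains.

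At 20 to 30 min the stalk genes stood at or below G1 and the Abf1-list genes on both sides of it. Of the stalk genes, RPP2A was -0.24 from G1 in SSDDCS and -0.16 in the control, and RPP1B was -0.06 and -0.07. The RPP2A values are not separate from those of RPS15, whose counts were close in every library. RPP2B was -0.50 and -0.47, RPP1A -0.16 and -0.00, and RPP0 -0.94 and -0.00. On the Abf1 list the median was -0.11 in SSDDCS and -0.16 in the control, with RPL4B at 0.44 and 0.06 and RPL3 at 0.54 and -0.17.

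Other highly expressed or related gene groups gave a scale for these values. Promoters of 67 mitochondrial ribosomal protein genes, whose proteins are made in the cytoplasm for a separate ribosome, were -0.36 from G1 at 20 to 30 min in SSDDCS and -0.27 in the control, and cytoplasmic RP promoters exceeded them by 0.15 (0.06 to 0.24) and 0.09 (0.01 to 0.18). Promoters of 17 glycolytic genes, several of which Rap1 also regulates, were -0.32 and -0.31, and RP promoters exceeded them by 0.11 in SSDDCS (-0.02 to 0.24) and 0.13 in the control (0.00 to 0.26). On high-confidence peaks RP promoters differed from the glycolytic ones by -0.00 in SSDDCS (-0.14 to 0.14) and 0.03 in the control (-0.10 to 0.17). Promoters of the 10 translation elongation factor genes were -0.41 and -0.22. Those of 9 genes for RP gene regulators (RAP1, FHL1, IFH1, SFP1, HMO1, CRF1, ABF1, REB1 and TBF1) were -0.19 (-0.39 to 0.01) and -0.14 (-0.34 to 0.07). These are pooled reads, and the median change over the 9 regulator promoters was 0.07 in SSDDCS and -0.05 in the control. Between the strains after G1 the median promoter ratio was -0.10 in the mitochondrial group, -0.04 in the glycolytic group, -0.10 in the elongation group and -0.07 in the regulators.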

How the data were processed

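Sub-nucleosomal MNase-seq was analysed for 24 libraries, 1 per strain and time point. The deposited unit is read counts per peak, which the authors made by aligning reads to sacCer3 (Bowtie2 2.2.6 and SAMtools 0.1.19 in the submitters' processing notes), keeping fragments below 100 bp, thinning every time point to equal read numbers at each fragment length, and calling peaks on all samples merged. This thinning equalises depth, so changes in the total of such fragments are lost. Whether positions count from 0 or 1 is not given in the sources used here, which leaves 1 bp of doubt.

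Counts were divided by each library's total outside chromosome XII 451 to 491 kb. Genes came from the RefSeq R64 annotation (6002 protein-coding genes), distances from the start codon. For groups of other genes, RP promoter peaks were left out. A log2 value of pooled counts carries an exact binomial 95% interval, a share a Wilson interval, and a difference of log2 values a normal interval with Poisson variances. Calls used a pseudocount of 1 and a fold of 2. Named promoters are the 10 with the most and 5 with the fewest reads, the 5 highest and 5 lowest strain ratios and 20 to 30 min changes, the 5 pairs furthest apart, the 5 highest peaks, and the stalk and Abf1-list genes. RPL12B, RPL20B and RPL27A were added for their sequences. The members and lists were chosen with earlier results of these data known. Bands of distance and the sets around the Rap1 site were chosen after seeing the data. Functions were tested on simulated data. Alternatives tried were other scalings, windows, peak classes, folds, pseudocounts and left-out time points. Python 3.11.15, numpy 2.4.6, pandas 2.3.3 and scipy 1.17.1 were used.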

Additional observations from a re-analysis of the deposited data

How the results depend on the processing

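The scale decided the direction of both the time change and the strain ratio of RP promoter reads. Totals that include the ribosomal DNA moved the 20 to 30 min value to -0.05 in SSDDCS and -0.11 in the control and reversed the pooled strain ratio to 0.01. Median-ratio factors reversed the same 3 values, to 0.13 in SSDDCS, 0.08 in the control and 0.03 for the strain ratio. Among narrower peak sets, a 500 bp window gave -0.31 in SSDDCS and -0.26 in the control, high-confidence peaks -0.33 and -0.27, and peaks outside coding sequence -0.28 in SSDDCS. Without peaks shared with genes that are no RP gene the values were -0.19 in SSDDCS and -0.17 in the control. Leaving out 1 time point gave pooled strain ratios of -0.04 to -0.01, the last without the 20 min libraries.

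RP minus other promoters depended on the peak set. At 20 to 30 min it was 0.19 in SSDDCS and 0.13 in the control on high-confidence peaks and 0.14 in SSDDCS on peaks within 200 bp, and at 50 to 60 min 0.21 and 0.13 on high-confidence peaks and 0.24 in SSDDCS and 0.07 in the control (-0.02 to 0.16) within 200 bp. These alternatives, the Rap1 and coding-sequence ones and the left-out time points other than 5 min were chosen after seeing the data.

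Counts past a fold followed its definition. Between strains, RP promoters past it numbered 101 at 1.5-fold (73.7%, against 84.2% of other promoters), 3 at 3-fold (2.19%, 2.65%), 3 with a pseudocount of 10 (2.19%, 2.70%), 1 with neighbouring times required (0.73%, 1.34%) and 51 in a 500 bp window (48.0% of others). High-confidence RP peaks numbered 196 at 1.5-fold (94.7%, against 97.3% of others), 22 at 3-fold (10.6%, 14.4%), 8 with a pseudocount of 10 (3.86%, 5.97%) and 9 with neighbouring times (4.35%, 6.92%), and 324 of all 439 member peaks passed, against 85.3% of other promoter peaks. Over time, 18 RP promoters in SSDDCS (13.1%, against 27.3% of others) and 15 in the control (10.9%, 22.0%) were past 1.5-fold, and 0 in each with a pseudocount of 10 (0.95% and 0.29% of others). No paired analysis was possible because the labels give no replicate numbers and no test was run. The strain ratios set libraries of the same time side by side, and times are not replicates.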
